A study of Mus musculus with 6 samples.

Results

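Type I interferon-stimulated genes were followed in newborn lenses of Fyco1-/- and WT mice. Fyco1 encodes an adaptor that links autophagosomes and late endosomes to microtubule motors, and its loss causes congenital cataract in humans. The 9 genes were Rsad2, Cmpk2, Ifit1, Ifit3, Irf7, Irf9, Isg15, Bst2 and Ifitm3, chosen by symbol with earlier results of these data known. All 9 were found among the 22298 entries of the deposited expression table. The groups were 3 libraries from Fyco1-/- lenses and 3 from WT lenses, each made from total RNA of 10 pooled lenses of C57BL/6 mice at postnatal day 0. Libraries in each group carry the letters A, B and C. Depth, estimated from the values, differed at most 1.17-fold between libraries. The labels give neither the deleted part of Fyco1 nor how the line was made. Fyco1 itself measured 4.61, 4.59 and 4.87 FPKM in Fyco1-/- libraries, against 5.40, 5.21 and 5.11 FPKM in WT libraries, where FPKM is fragments per kilobase scaled to the mapped reads of the library. The 2 groups did not overlap, but Fyco1 was not called (log2 fold change -0.15, SE 0.08, limma adjusted p = 0.273). A level summed over a whole gene does not show whether an exon is missing, so it does not check the genotype, and group names here are those of the labels.

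Type I interferons bind a pair of receptor chains, Ifnar1 and Ifnar2, and activate the kinases Jak1 and Tyk2. The kinases phosphorylate transcription factors such as Stat2, which joins the DNA-binding subunit Irf9 and acts at interferon-stimulated response elements near its target genes. The targets block viruses at entry, replication or release, and many cells transcribe some of them at a low level without infection.

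Promoter windows of the 9 genes were read from RefSeq (GRCm38.p6), from 250 bases before to 50 bases after each annotated start, and all 9 genes had one. The search took the response element as GAAANNGAAA, or TTTCNNTTTC on the other strand, and the shorter interferon regulatory factor element as AANNGAAA, or TTTCNNTT. Every GAAANNGAAA also holds an AANNGAAA, so the motifs overlap. GAAANNGAAA was found in the windows of 6 of the 9 genes, Rsad2, Ifit1, Ifit3, Isg15, Bst2 and Ifitm3, and in 3.44% of all 32851 windows. The shorter motif was found in the same 6 genes and in 23.9% of all windows. Rsad2 and Cmpk2 are shown because they stand back to back with starts 12752 bases apart and differed in their values. Isg15, Bst2 and Ifit1 are shown because they hold the motif and differed less than Rsad2 did. Each sequence runs 5′ to 3′ on the strand of its gene, and capitals mark matches to either motif.
Rsad2 (chr12:26456403-26456702, minus strand): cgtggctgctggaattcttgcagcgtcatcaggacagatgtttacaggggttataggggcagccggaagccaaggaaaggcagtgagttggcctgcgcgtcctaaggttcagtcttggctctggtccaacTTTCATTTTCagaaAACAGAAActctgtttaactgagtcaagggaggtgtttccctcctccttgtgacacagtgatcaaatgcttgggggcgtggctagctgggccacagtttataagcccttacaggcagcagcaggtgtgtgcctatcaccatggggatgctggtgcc
Cmpk2 (chr12:26468965-26469264, plus strand): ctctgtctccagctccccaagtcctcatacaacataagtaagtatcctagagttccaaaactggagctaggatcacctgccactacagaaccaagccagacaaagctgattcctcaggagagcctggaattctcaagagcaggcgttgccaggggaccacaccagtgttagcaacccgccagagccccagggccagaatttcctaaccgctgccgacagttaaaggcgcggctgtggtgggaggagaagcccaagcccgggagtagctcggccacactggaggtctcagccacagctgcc
Isg15 (chr4:156200769-156201068, minus strand): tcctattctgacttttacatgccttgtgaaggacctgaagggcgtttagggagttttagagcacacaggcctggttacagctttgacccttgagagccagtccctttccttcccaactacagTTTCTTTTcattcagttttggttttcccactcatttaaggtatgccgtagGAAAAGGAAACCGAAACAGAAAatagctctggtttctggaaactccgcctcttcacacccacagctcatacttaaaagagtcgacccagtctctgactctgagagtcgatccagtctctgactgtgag
Bst2 (chr8:71537423-71537722, minus strand): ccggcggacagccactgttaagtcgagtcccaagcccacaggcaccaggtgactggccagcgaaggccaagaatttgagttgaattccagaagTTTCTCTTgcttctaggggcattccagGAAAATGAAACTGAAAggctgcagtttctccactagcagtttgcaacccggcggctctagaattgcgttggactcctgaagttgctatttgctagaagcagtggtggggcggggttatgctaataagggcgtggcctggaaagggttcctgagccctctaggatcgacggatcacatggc
Ifit1 (chr19:34640639-34640938, plus strand): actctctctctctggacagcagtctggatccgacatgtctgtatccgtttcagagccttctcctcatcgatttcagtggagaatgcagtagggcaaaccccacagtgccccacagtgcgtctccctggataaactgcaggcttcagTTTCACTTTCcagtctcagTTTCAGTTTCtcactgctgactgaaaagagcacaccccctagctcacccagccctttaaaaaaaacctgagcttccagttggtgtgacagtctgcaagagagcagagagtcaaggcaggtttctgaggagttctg
The window of Rsad2 held 1 match to the longer motif, which began 120 bases upstream of the start, and a shorter one 106 bases upstream. Isg15 held 3 overlapping longer matches beginning 78, 72 and 66 bases upstream. In Bst2 a pair of them began 130 and 124 bases upstream, and in Ifit1 they began 104 and 85 bases upstream. No match to either motif was found in the windows of Cmpk2, Irf7 and Irf9. A match describes letters only and is not a measured binding site.

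Rsad2 was nearly absent from Fyco1-/- lenses and was present at a steady level in WT lenses. Rsad2 (ENSMUSG00000020641, GRCm38 chromosome 12, 26442746 to 26456452, minus strand) encodes viperin, a radical-SAM enzyme that makes a chain-terminating nucleotide from CTP. It measured 0.0127, 0.0489 and 0.0251 FPKM in Fyco1-/- libraries A, B and C, against 1.55, 1.43 and 1.51 FPKM in WT libraries A, B and C. All 3 Fyco1-/- libraries were far below the lowest WT library, and the highest WT value was 1.09 times the lowest. The mean was 0.0289 ± 0.0184 FPKM in Fyco1-/- lenses and 1.49 ± 0.0626 FPKM in WT lenses (SD, n = 3 each), so it was lower in Fyco1-/- lenses by a factor of 51.7. On the scale of log2(FPKM + 0.5), which understates the change of low genes, Rsad2 fell by 1.92 (SE 0.15, 95% interval -2.24 to -1.59, limma adjusted p = 4.97e-05). That was the 6th largest fall by log2 fold change among the genes called lower. The gene passed the filter on low values through its WT level. In lenses taken whole, fewer cells that express a gene and less RNA per cell cannot be told apart, and this holds for every gene below.

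**Figure D1:**
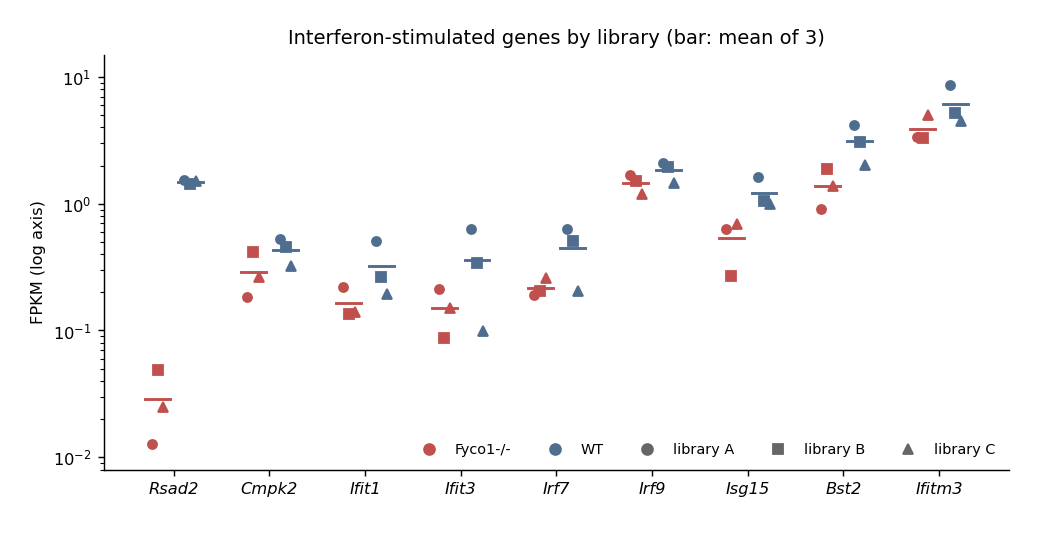
FPKM of the 9 genes in each library on a log axis, with Fyco1-/- libraries in red to the left of WT libraries in blue; symbols mark libraries A, B and C and bars mark the mean of 3. Rsad2 lies at 0.0127 to 0.0489 FPKM in Fyco1-/- libraries and at 1.43 to 1.55 FPKM in WT libraries, while 6 of the other 8 genes overlap between the groups.

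The Rsad2 values in Fyco1-/- lenses rest on single reads. Converted to reads through the spacing of low FPKM values and an exon length of 4335 bases, they correspond to about 1, 4 and 2 reads in Fyco1-/- libraries, against 115, 124 and 113 reads in WT libraries. Their sums, 7 reads in Fyco1-/- and 352 reads in WT libraries, give a WT to Fyco1-/- ratio of 52.9 after allowing for depth, with a 95% interval from 25.4 to 132 (exact binomial, counting error only). In the authors' deposited table, the DESeq2 log2 fold change of Rsad2 is -2.10 with an adjusted p of 1.54e-33. The settings behind it are not given in the sources used here, so its size is not comparable with the ratios above. Rsad2 was the only one of the 9 genes with an adjusted p under 0.05 there, and Ifit3 had no adjusted p. Of the 13066 genes with an adjusted p there, 4.15% were called lower.

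The other 8 genes had lower means in Fyco1-/- lenses as well, but none of them passed the test. With Rsad2, 9 of 9 means were lower in Fyco1-/- than in WT lenses, and this held with each library left out in turn, which reuses the same values. Since the 9 genes were chosen with earlier results of these data known, the counts in this paragraph describe the genes and do not test them as a set. Of the 5 genes with a mean of at least 0.5 FPKM, which entered the test, 1 was called lower and 0 were called higher. Over all 12001 tested genes, limma called 8.43% in either direction, 5.02% lower and 3.42% higher. At an unadjusted p under 0.05 the counts were 3 of 5 lower and 0 higher, against 15.1% lower and 9.32% higher over all tested genes. The means of the other 8 genes differed by factors of 1.26 to 2.39, with a median of 2.00. All 5 tested genes had a negative log2 fold change, against 59.9% of all tested genes. With quantile normalization or median-of-ratios scaling the 5 stayed negative, against 50.6% of all tested genes under either.

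Bst2 and Isg15 came closest to the threshold. Bst2 (ENSMUSG00000046718, chromosome 8, 71534255 to 71537456, minus strand) encodes tetherin, which holds budding virions at the cell surface. It measured 0.903, 1.88 and 1.38 FPKM in Fyco1-/- libraries A, B and C, against 4.21, 3.06 and 2.03 FPKM in WT libraries A, B and C. Every Fyco1-/- value was below every WT value, but the WT values spread 2.07-fold, from WT A at the top to WT C, which was close to Fyco1-/- B. The mean was 1.39 ± 0.487 FPKM in Fyco1-/- and 3.10 ± 1.09 FPKM in WT lenses (SD, n = 3 each), with a log2 fold change of -0.92 (SE 0.25, 95% interval -1.50 to -0.34, limma adjusted p = 0.0645). Bst2 was called without robust moderation (limma adjusted p = 0.0486) and without WT C (0.0255), over a range of 0.0255 to 0.176 in the 15 alternatives.

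Isg15 (ENSMUSG00000035692, chromosome 4, 156199424 to 156200818, minus strand) encodes a ubiquitin-like protein that is attached to other proteins after interferon exposure. It measured 0.632, 0.271 and 0.696 FPKM in Fyco1-/- libraries A, B and C, against 1.62, 1.05 and 0.987 FPKM in WT libraries A, B and C. The groups did not overlap, and WT A again stood highest. The mean was 0.533 ± 0.229 FPKM in Fyco1-/- and 1.22 ± 0.350 FPKM in WT lenses (SD, n = 3 each), with a log2 fold change of -0.74 (SE 0.21, 95% interval -1.21 to -0.28, limma adjusted p = 0.0543). With the letters A to C as a replicate block Isg15 was called (limma adjusted p = 0.0489), and the range over 14 alternatives was 0.0489 to 0.175. The gene is short, with 756 exon bases, so these levels correspond to about 4 to 10 reads per Fyco1-/- library and 13 to 21 reads per WT library. A predicted gene, AC151275.1, matches 482 bases of its transcript at 95.2% identity, so reads could be split between them. The groups did not overlap for Rsad2, Isg15 and Bst2, which were 3 of the 5 tested genes and 3 of the 9. All 3 Fyco1-/- values were below all 3 WT values in 18.6% of all tested genes and in 12.5% of all 22298 entries.

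**Figure D2:**
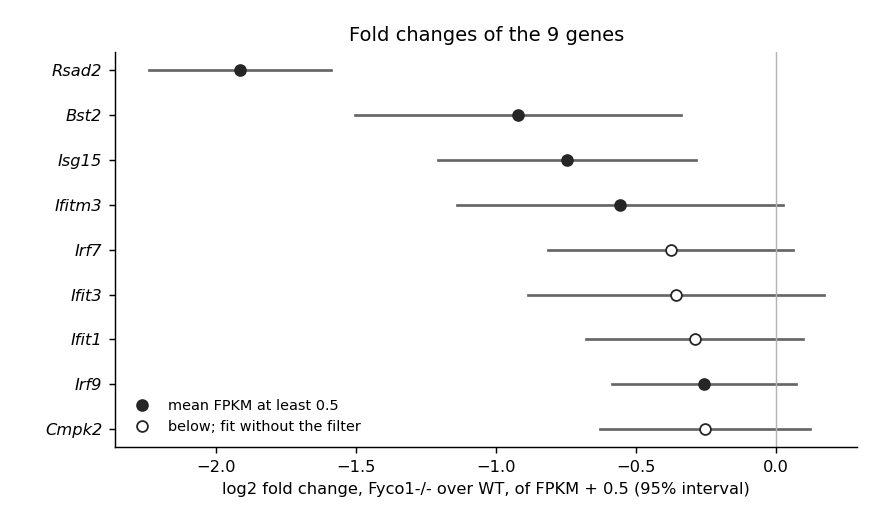
Log2 fold changes of the 9 genes, Fyco1-/- over WT, on the FPKM + 0.5 scale, with 95% intervals as lines; filled points are the 5 tested genes and open points the 4 of lower mean, from the fit without the filter. The interval of Rsad2 (-2.24 to -1.59) lies apart from those of the other 8 genes, and the intervals of Bst2 and Isg15 end below 0.

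Ifitm3 and Irf9 were the other tested genes. Ifitm3 (ENSMUSG00000025492, chromosome 7, 141009586 to 141010770, minus strand), a membrane protein that hinders virus fusion in endosomes, measured 3.36, 3.32 and 5.04 FPKM in Fyco1-/- libraries A, B and C, against 8.63, 5.22 and 4.49 FPKM in WT libraries A, B and C. The groups overlapped, since Fyco1-/- C was above WT C, and WT A stood apart at the top. The mean was 3.91 ± 0.982 FPKM in Fyco1-/- and 6.11 ± 2.21 FPKM in WT lenses (SD, n = 3 each), and the log2 fold change of -0.56 was not called (SE 0.25, 95% interval -1.14 to 0.03, limma adjusted p = 0.225). Irf9 (ENSMUSG00000002325, chromosome 14, 55603571 to 55610030, plus strand) measured 1.69, 1.51 and 1.18 FPKM in Fyco1-/- libraries A, B and C, against 2.10, 1.96 and 1.47 FPKM in WT libraries A, B and C. The groups overlapped, with a log2 fold change of -0.26 (SE 0.15, limma adjusted p = 0.326). Irf9 shares 123 exon bases with Rnf31 on the same strand, so some of its reads could belong to either gene, and stretches of 109 to 128 bases of its transcripts match other genes at 95% identity or more.

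The remaining 4 genes lay under 0.5 FPKM on average and were not tested in the main comparison. Cmpk2 (ENSMUSG00000020638, chromosome 12, 26469204 to 26479837, plus strand), a mitochondrial nucleotide kinase, measured 0.182, 0.416 and 0.263 FPKM in Fyco1-/- libraries A, B and C, against 0.530, 0.452 and 0.323 FPKM in WT libraries A, B and C. Fyco1-/- B was within the WT values, and the means of 0.287 ± 0.119 FPKM in Fyco1-/- and 0.435 ± 0.105 FPKM in WT lenses (SD, n = 3 each) differed 1.51-fold. The difference was thus far smaller than the 51.7-fold one of its neighbour Rsad2. A test between those 2 differences was not made.

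Irf7 (ENSMUSG00000025498, chromosome 7, 141262706 to 141266481, minus strand), the factor that amplifies interferon production, measured 0.190, 0.206 and 0.259 FPKM in Fyco1-/- libraries A, B and C, against 0.628, 0.512 and 0.205 FPKM in WT libraries A, B and C. WT A and WT B were above all Fyco1-/- libraries, and WT C was at the Fyco1-/- level. Irf7 shares 45 exon bases with Phrf1 on the opposite strand, and the handling of strand in the counting is not given in the sources used here.

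Ifit1 and Ifit3 are tetratricopeptide-repeat proteins of the same family, and Ifit1 binds foreign RNA ends. Ifit1 (ENSMUSG00000034459, chromosome 19, 34640871 to 34650009, plus strand) measured 0.220, 0.135 and 0.139 FPKM in Fyco1-/- libraries A, B and C, against 0.506, 0.263 and 0.195 FPKM in WT libraries A, B and C. Ifit3 (ENSMUSG00000074896, chromosome 19, 34583531 to 34588731, plus strand) measured 0.213, 0.0880 and 0.151 FPKM in Fyco1-/- libraries A, B and C, against 0.637, 0.342 and 0.0987 FPKM in WT libraries A, B and C. For both genes WT C lay inside the Fyco1-/- values. Ifit3 is 97.8% identical to Ifit3b over 1700 bases, and Ifit3b was not analysed here, so reads of the copy cannot be set apart. Exact permutation tests (two-sided) of these 4 genes gave p = 0.2 for Cmpk2 and Ifit1 and p = 0.3 for Ifit3 and Irf7, where 3 against 3 libraries cannot give less than 0.1. A fit without the filter gave limma adjusted p-values of 0.402 to 0.536 for the 4 genes and called 1.44% of all 22298 entries lower. At this depth a gene of 1 kb gives 1 read per 0.0499 to 0.0586 FPKM. The values of the 4 genes correspond to about 3 to 40 reads per library, and the difference that could have been called was not worked out.

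The profile of Rsad2 across libraries was unlike that of the others, which is described here without a test. WT A held the highest WT value in 9 of 9 genes, and WT C held the lowest in 8 of 9, all but Rsad2. The WT values of the other 8 genes spread 1.43-fold to 6.45-fold, against 1.09-fold for Rsad2. Counting error differs between them, as the 6.45-fold spread of Ifit3 rests on about 3 to 19 reads per WT library. Rsad2 had about 113 to 124 reads there, and Irf9, which spread 1.43-fold, had 137 to 211. In Fyco1-/- libraries Rsad2 had the widest spread of the 9 genes, 3.86-fold, at about 1 to 4 reads. Summed over the 9 genes, FPKM ran from 7.40 to 9.14 in Fyco1-/- libraries and from 11.3 to 20.4 in WT libraries, with 20.4 in WT A. Without WT A, the means of the other 8 genes differed by factors of 1.17 to 1.92 with a median of 1.43, against 1.26 to 2.39 and 2.00 with it. Rsad2 was lower by a factor of 50.8 without WT A.

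**Figure D3:**
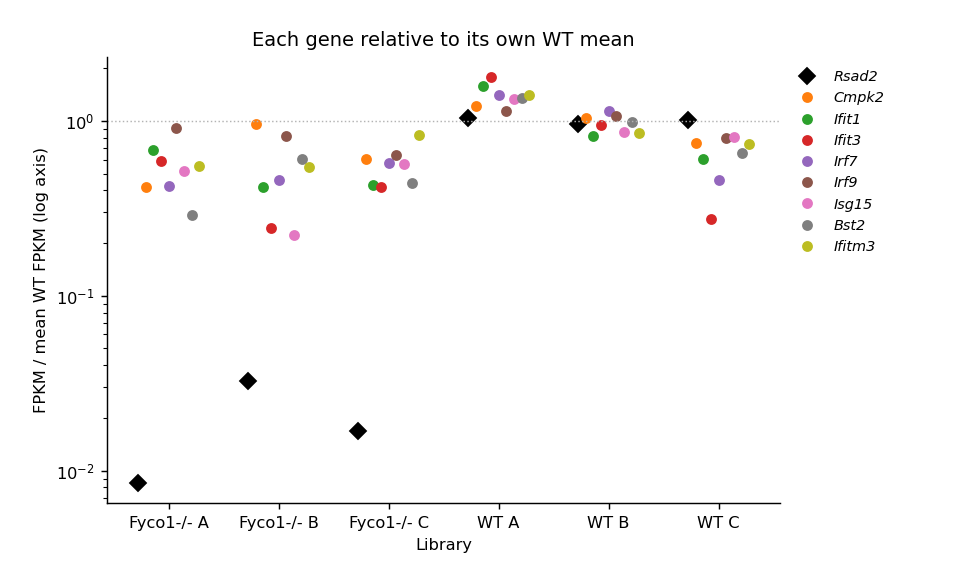
Each gene's FPKM in each library divided by its own WT mean, on a log axis, with Rsad2 as black diamonds and the other 8 genes as coloured circles. Rsad2 lies close to 1 in all 3 WT libraries and far below the others in the Fyco1-/- libraries, while the other genes lie highest in WT A.

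The order of levels therefore differed between the groups. In Fyco1-/- lenses the order of mean FPKM was Ifitm3, Irf9, Bst2, Isg15, Cmpk2, Irf7, Ifit1, Ifit3 and Rsad2, and the library values of neighbours were apart only between Ifitm3 and Irf9, Bst2 and Isg15, and Ifit3 and Rsad2. In WT lenses the order was Ifitm3, Bst2, Irf9, Rsad2, Isg15, Irf7, Cmpk2, Ifit3 and Ifit1, with gaps only between Ifitm3 and Bst2 and between Isg15 and Irf7. Rsad2 was 9th of 9 in Fyco1-/- lenses and 4th of 9 in WT lenses.

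Endothelial, pericyte and leukocyte markers summed highest in WT A or WT B. Summed endothelial markers (9 of 9 in the table) ran from 32.8 to 38.7 FPKM in Fyco1-/- libraries and from 35.6 to 48.3 FPKM in WT libraries, with 48.3 in WT A, which was the highest WT library for all 9 of them. Plvap, a protein of endothelial diaphragms, fell in Fyco1-/- lenses and was the 1 endothelial marker called, with a log2 fold change of -0.52 (limma adjusted p = 0.0195). That was 1 of 9 tested endothelial markers, against 5.02% called lower over all tested genes. Summed pericyte and mesenchyme markers (8 of 8) ran from 34.1 to 36.6 FPKM in Fyco1-/- libraries and from 34.9 to 44.8 FPKM in WT libraries, again highest in WT A. Summed leukocyte markers (17 of 19 in the table) ran from 5.56 to 7.57 FPKM in Fyco1-/- libraries and from 5.57 to 35.1 FPKM in WT libraries. The highest, in WT B, came mainly from Lyz2 at 23.1 FPKM. Erythroid markers summed to 102 to 241 FPKM in Fyco1-/- libraries and 81.4 to 195 FPKM in WT libraries, highest in Fyco1-/- A. Retina and pigment epithelium markers summed to 1.20 to 2.57 FPKM in Fyco1-/- libraries and 0.966 to 1.30 FPKM in WT libraries, and cornea and surface epithelium markers to 0.888 to 2.42 FPKM in Fyco1-/- libraries and 0.741 to 2.21 FPKM in WT libraries. No marker on these lists was at 0 in all libraries, and Adgre1 and Krt12 were not analysed here. Lens markers (12 of 12) summed to 180975 to 186790 FPKM in Fyco1-/- libraries and 176853 to 183614 FPKM in WT libraries. Among tested markers, the log2 fold change was negative for 6 of 7 leukocyte, 8 of 9 endothelial and 4 of 6 pericyte and mesenchyme markers. Their medians were -0.30, -0.14 and -0.02, against -0.04 for all tested genes. The part of these markers in the values of the 9 genes was not tested.

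Other interferon-stimulated genes were read from a list of 58, of which 55 were in the table and 16 were tested. The list too was chosen with earlier results of these data known, so its counts are descriptive. Of the 16, 2 fell in Fyco1-/- lenses and 0 rose, and 14 had a negative log2 fold change, against 5.02% called lower, 3.42% called higher and 59.9% negative over all tested genes. Ifi27, Ifi27l2a and Ifi35 passed the filter on low values only through their WT means of 0.879, 0.685 and 0.658 FPKM. Their Fyco1-/- means were 0.340, 0.340 and 0.435 FPKM, so their negative sign is partly a result of the filter. With quantile normalization 13 of the 16 were negative and with median-of-ratios scaling 14, against 50.6% of all tested genes under either. The groups did not overlap, with Fyco1-/- lower, for 7 of the 16 and for 15 of the 55, beside 18.6% of all tested genes and 12.5% of all entries. The median log2 fold change was -0.31, against -0.74 for the 5 tested genes of the 9 and -0.04 for all tested genes. Of the 55, 47 had a lower mean in Fyco1-/- than in WT lenses, and 43 did without WT A. Among the 26 of them with a mean of 0.1 to 0.5 FPKM, 22 were lower in Fyco1-/- lenses, against 54.1% of the 3631 entries in that range. WT A was the highest WT library for 36 of the 55.

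The genes called lower were Ifitm2, a relative of Ifitm3, and Shisa5, a p53-induced membrane protein. Ifitm2 measured 54.1, 59.4 and 55.5 FPKM in Fyco1-/- libraries A, B and C, against 70.3, 75.1 and 61.9 FPKM in WT libraries A, B and C (log2 fold change -0.29, limma adjusted p = 0.0312). Shisa5 measured 1.75, 1.55 and 1.76 FPKM in Fyco1-/- libraries A, B and C, against 2.62, 2.47 and 2.20 FPKM in WT libraries A, B and C (log2 fold change -0.42, limma adjusted p = 0.0408). The groups overlapped for neither gene. Ifitm2 has a copy, Gm8865, of 95.6% identity over 429 bases, so its level is uncertain. Both calls were lost without the filter on low values (adjusted p = 0.0941 for Ifitm2 and 0.0892 for Shisa5). Leaving out a library ended the call of Ifitm2 for Fyco1-/- A, Fyco1-/- C, WT A or WT B (0.0854 to 0.105), and that of Shisa5 for every library but WT C (0.0681 to 0.135). Shisa5 was also not called with quantile normalization (0.0605) or the replicate block (0.0637).

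The signalling chain upstream of the 9 genes held 1 call. Of 21 interferon ligand genes, 5 were in the table, and none exceeded 0.240 FPKM in any library. Among interferon receptors (6 in the table, 4 tested) 0 were called higher and 0 lower, with 0 at an unadjusted p under 0.05. Ifnar1 averaged 6.71 ± 0.179 FPKM in Fyco1-/- and 6.79 ± 0.539 FPKM in WT lenses, and Ifngr1, of the type II receptor, averaged 3.40 ± 0.185 FPKM in Fyco1-/- and 3.34 ± 0.509 FPKM in WT lenses (SD, n = 3 each). Of 11 JAK-STAT transducers and inhibitors, all tested, 0 were called in either direction, with 1 lower and 0 higher at an unadjusted p under 0.05. Jak1 averaged 5.95 ± 0.544 FPKM in Fyco1-/- and 5.76 ± 0.276 FPKM in WT lenses, and Ptpn2, a phosphatase that switches the pathway off, averaged 5.54 ± 0.558 FPKM in Fyco1-/- and 4.65 ± 0.856 FPKM in WT lenses (SD, n = 3 each). Stat2, a partner of Irf9 that was picked out after its values were seen, averaged 1.65 ± 0.171 FPKM in Fyco1-/- and 1.45 ± 0.0927 FPKM in WT lenses (SD, n = 3 each). The median log2 fold changes of these lists, -0.01 for receptors and -0.02 for transducers, became 0.04 and 0.05 with quantile normalization and 0.03 and 0.01 with median-of-ratios scaling, so they have no stable sign. The medians of the 9 genes and of the other interferon-stimulated genes stayed negative under both scalings.

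Of the other interferon regulatory factors (7 in the table, 3 tested) 0 were called, and 0 had an unadjusted p under 0.05. Irf3 averaged 4.35 ± 0.756 FPKM in Fyco1-/- and 4.65 ± 1.16 FPKM in WT lenses, and Irf2 averaged 2.46 ± 0.0979 FPKM in Fyco1-/- and 2.64 ± 0.270 FPKM in WT lenses (SD, n = 3 each). Among genes of nucleic acid sensing (21 in the table, 12 tested) 1 rose and 0 fell. The shares over all tested genes were 3.42% called higher and 5.02% called lower. Tbk1, the kinase that phosphorylates Irf3 and also autophagy receptors, measured 7.47, 6.91 and 7.92 FPKM in Fyco1-/- libraries A, B and C, against 6.00, 5.90 and 4.89 FPKM in WT libraries A, B and C (log2 fold change 0.38, limma adjusted p = 0.0325). The groups did not overlap. The call was lost without the filter (adjusted p = 0.0919), with the replicate block (0.0608), and without Fyco1-/- A, Fyco1-/- C, WT B or WT C (0.0592 to 0.109). Of the genes of class I antigen presentation (14 in the table, 9 tested), a later step of the interferon response, 0 were called. At an unadjusted p under 0.05, 3 were lower and 0 higher, against 15.1% lower and 9.32% higher over all tested genes. The 3 were H2-D1, B2m and Psme1, with log2 fold changes of -0.55, -0.65 and -0.17. Psme2 averaged 18.0 ± 0.733 FPKM in Fyco1-/- and 17.3 ± 1.64 FPKM in WT lenses, and Nlrc5, the activator of class I genes, averaged 12.1 ± 1.83 FPKM in Fyco1-/- and 13.1 ± 0.394 FPKM in WT lenses (SD, n = 3 each).

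**Figure D4:**
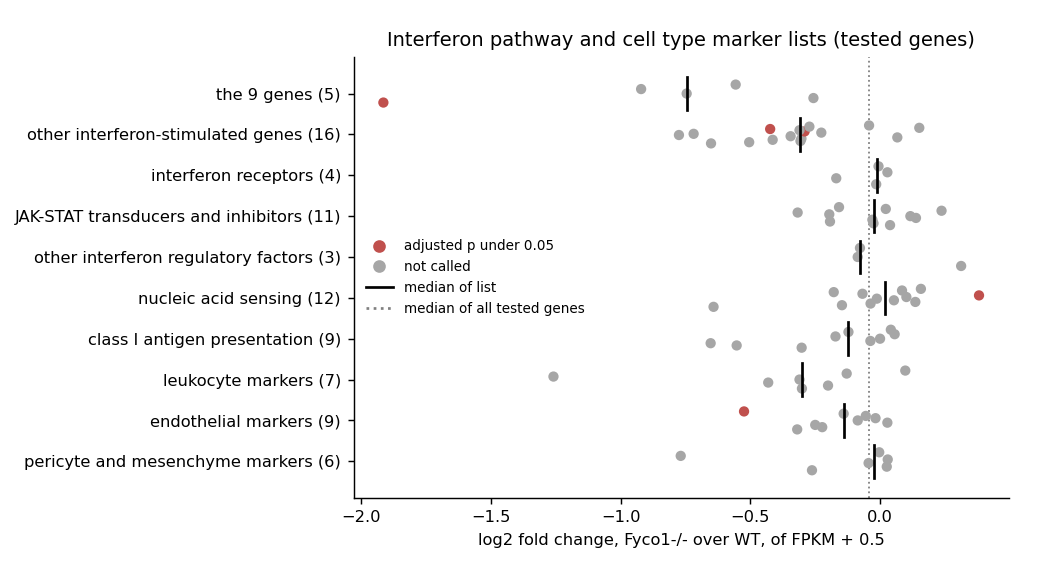
Log2 fold changes (Fyco1-/- over WT, FPKM + 0.5) of the tested genes of each interferon list and of 3 cell type marker lists, with the number tested in parentheses; red points are called, black bars are list medians and the dotted line is the median of all tested genes (-0.04). Rsad2 is the lowest red point at -1.92, and the medians of the 9 genes (-0.74) and of the other interferon-stimulated genes (-0.31) lie left of the dotted line. So do those of leukocyte markers (-0.30), endothelial markers (-0.14), class I antigen presentation (-0.12) and other interferon regulatory factors (-0.08). The medians of the remaining lists lie to its right.

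Rsad2 was further set among its neighbours on chromosome 12, within a window of 2 Mb on each side of its start that was chosen after its values were seen. Of the 13 neighbours in the table, 8 were tested, of which 1 was called higher and 1 lower. Over all tested genes, 3.42% were called higher and 5.02% lower. The 1 called higher was Gm6969, a processed pseudogene 1.82 Mb away, at 82.4 ± 15.6 FPKM in Fyco1-/- and 0.768 ± 0.602 FPKM in WT lenses (SD, n = 3 each, log2 fold change 6.11, limma adjusted p = 0.0007). Its sequence matches Cox7a2l at 98.0% identity over 342 bases, so its reads could come from either gene. The 1 called lower was Rrm2, a ribonucleotide reductase subunit 1.75 Mb away, at 1.40 ± 0.457 FPKM in Fyco1-/- and 3.03 ± 0.610 FPKM in WT lenses (SD, n = 3 each, log2 fold change -0.90, limma adjusted p = 0.0153). The neighbours on either side of Rsad2 were both too low to be tested, Cmpk2 as above and Rnf144a at 0.391 ± 0.119 FPKM in Fyco1-/- and 0.306 ± 0.0569 FPKM in WT lenses (SD, n = 3 each).

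**Figure D5:**
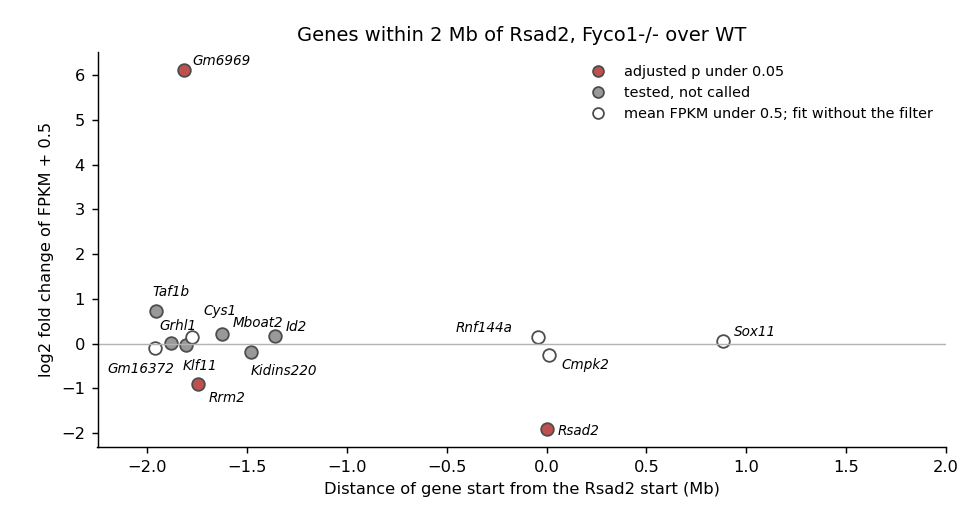
Log2 fold change (Fyco1-/- over WT, FPKM + 0.5) of Rsad2 and the 13 table entries within 2 Mb, against the distance of their starts from that of Rsad2; red points are called, grey points are tested and not called, and open points come from the fit without the filter. Rsad2 lies at -1.92 and the 2 called neighbours, Gm6969 and Rrm2, lie 1.82 and 1.75 Mb away.

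The tested genes whose log2(FPKM + 0.5) followed that of Rsad2 most closely over the 6 libraries were Rpl29 (Pearson r = 0.9986), Eif3j1 (0.9981), Lgr4 (0.9978), Peg10 (0.9976) and Unc13c (0.9971). None is on the interferon lists. Their Fyco1-/- values spread 1.01-fold to 1.10-fold, whereas those of Rsad2 spread 3.86-fold in FPKM, a spread that the added 0.5 makes small on the log scale. Rpl29 averaged 116 ± 3.40 FPKM in Fyco1-/- and 637 ± 11.4 FPKM in WT lenses, and Eif3j1 averaged 9.58 ± 0.193 FPKM in Fyco1-/- and 16.1 ± 0.250 FPKM in WT lenses (SD, n = 3 each). Both have near-identical copies elsewhere in the genome, such as Gm10709 for Rpl29 and Eif3j2 for Eif3j1, so their levels are uncertain. The r of Rsad2 with the other 8 genes was 0.54 for Ifit3 to 0.82 for Isg15 and Bst2, and -0.22 to 0.66 for deviations from the group means. These values mix the difference between the groups with the spread within them and describe 6 libraries only. Over the 28 pairs of the other 8 genes, r ran from 0.42 (Cmpk2 and Isg15) to 0.95 (Ifit1 and Ifit3, and Cmpk2 and Bst2), and the r of deviations ran from -0.22 (Cmpk2 and Isg15) to 0.96 (Cmpk2 and Bst2).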

How the data were processed

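Total RNA of pooled lenses was sequenced as paired reads, and per the labels' protocols the libraries were made with an NEB Ultra kit. Per the series' design text, the authors used STAR 2.5 for alignment to GRCm38/mm10 and HTSeq 0.6.1 for quantification, and deposited FPKM values. Which annotation and strand setting they used is not given in the sources used here. The authors also deposited log2 fold changes, p-values and adjusted p-values from DESeq2, quoted as theirs. The deposited table holds 22298 entries, and 21 symbols occur more than once. Positions, exon lengths and transcripts came from GENCODE M21 (93.3% of entries matched by symbol) and promoter windows from RefSeq.

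Values were tested as log2(FPKM + 0.5) with limma 3.58.1 (R 4.3.3), using genotype alone, a mean-variance trend and robust moderation, over the 12001 entries with a mean of at least 0.5 FPKM. Calls are two-sided, at an adjusted p (Benjamini-Hochberg, over all tested genes) under 0.05. Of these, 1012 (8.43%) were called, 410 higher and 602 lower in Fyco1-/-. The higher share of calls was 40.5%, against 56.5% with median-of-ratios scaling. The same fit was checked on simulated data before use. Values are not counts, so no count test was run. Depth was inferred from the spacing of low FPKM values and GENCODE exon lengths. Of 32777 values of 1 to 20 reads, 50.5% lay within 0.05 of a whole read, where chance gives 10%, so reads are estimates. Exact tests used SciPy 1.17.1, and near-identical transcripts (95% identity over 100 bases) were sought with blastn 2.17.0.

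The 9 genes and all lists were chosen with earlier results of these data known. From each list the called genes were named, or else the 2 tested genes of highest mean, and the 5 genes most like Rsad2. Alternatives covered the pseudocount, the filter, the moderation, the scaling, the letters as a block and each library left out. Correlations of deviations from the group means between libraries of the same letter were -0.03, 0.03 and 0.03 for A, B and C. No shared deviation by letter was thus seen, but this cannot show whether libraries of the same letter were handled together.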

Additional observations from a re-analysis of the deposited data

How the results depend on the processing

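Rsad2 was called lower in all 15 alternatives, with a log2 fold change of -3.64 (pseudocount 0.1) to -1.28 (pseudocount 1) and limma adjusted p of 3.69e-05 to 0.001. No log2 fold change of the 9 genes reversed its sign, over -1.15 to -0.70 for Bst2, -1.11 to -0.54 for Isg15 (14 alternatives, as it was not tested with a minimum of 1 FPKM in 3 libraries), -0.73 to -0.30 for Ifitm3 and -0.38 to -0.15 for Irf9. The 4 lower genes have a value only in the fit without the filter. The number of the 9 genes called lower was 1, became 2 without robust moderation (Bst2) and 2 with the replicate block (Isg15), and was 1 to 2 with a library left out, 2 being without WT C (Bst2). None was called higher under any alternative. Over all genes, 1012 calls became 568 without the filter on low values and 929 with the replicate block, and leaving out 1 library gave 607 to 863. It was 673 without Fyco1-/- B, 642 without Fyco1-/- C, 612 without WT A and 607 without WT B. The cause was not tested. Counts of lower means with a library left out were added after seeing the data, and were 9 of 9 throughout for the 9 genes and 43 to 50 of 55 for the other interferon-stimulated genes. The 4 of the 9 genes under 0.5 FPKM had 3 to 40 estimated reads per library, with 3 libraries a group. Their WT values spread 1.64-fold (Cmpk2) to 6.45-fold (Ifit3). Their differences were not called, and the size of difference that could have been called was not worked out.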

Other observations

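Of the 55 other interferon-stimulated genes in the table, 15 had all 3 Fyco1-/- values below all 3 WT values and 1 had them above, where 12.5% of all entries were below. The 1 above was Mx2, at 0.343, 0.393 and 0.319 FPKM in Fyco1-/- libraries A, B and C, against 0.307, 0.181 and 0.116 FPKM in WT libraries A, B and C. It was not called in the fit without the filter (limma adjusted p = 0.397). In all, 8 of the 55 had a higher mean in Fyco1-/- lenses. Sp100 and Ly6e are 2 of the 15, whereas B2m and Ddx58 come from the lists of class I antigen presentation and nucleic acid sensing, and these 4 were picked out after their values were seen. Sp100, a component of nuclear bodies, lay under the filter at 0.0365 ± 0.0205 FPKM in Fyco1-/- and 0.351 ± 0.0782 FPKM in WT lenses (SD, n = 3 each). It was called lower in the fit without the filter (log2 fold change -0.66, limma adjusted p = 0.0379). Ly6e, a membrane protein of the cell surface, measured 0.744, 1.14 and 0.969 FPKM in Fyco1-/- libraries A, B and C, against 2.44, 2.25 and 1.16 FPKM in WT libraries A, B and C, and was not called (limma adjusted p = 0.0743). B2m, the light chain of class I molecules, measured 5.18, 6.07 and 6.42 FPKM in Fyco1-/- libraries A, B and C, against 13.3, 8.57 and 7.54 FPKM in WT libraries A, B and C, and was not called (limma adjusted p = 0.0833). Ddx58, the RNA sensor RIG-I, measured 0.329, 0.423 and 0.299 FPKM in Fyco1-/- libraries A, B and C, against 1.28, 0.643 and 0.637 FPKM in WT libraries A, B and C, and was not called (limma adjusted p = 0.0828). Ddx58 passed the filter on low values through its WT level. For Ly6e, B2m and Ddx58 the groups did not overlap, and WT A held the highest value.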
